A study of Mus musculus with 4 samples.

Results

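Cytosolic ribosomal protein genes encode the protein parts of the small (Rps) and large (Rpl) subunits of the ribosome. They were taken by symbol from the authors' deposited table as Rps or Rpl followed by a number, plus Rpsa, Rplp0, Rplp1 and Rplp2, which gave 172 probes of 84 genes among the 26265 genes on the array. Of these, 81 genes had a probe that both arrays of a group read well above background and were tested, and all but 1 of the 165 probes kept were well above background on all 4 arrays. The 3 genes not tested, Rpl3l, Rpl10l and Rpl39l, are tissue-restricted copies of Rpl3, Rpl10 and Rpl39, and none of their probes was well above background on any array.

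The series measured the response of pancreatic islets, the endocrine cell clusters of the pancreas, to GKA, a small-molecule activator of glucokinase, the enzyme that phosphorylates glucose in beta cells. Islets isolated from C57BL/6 mice aged 8 weeks were kept in RPMI1640 with 5.6 mM glucose for 24 h, either with 30 µM GKA or with the vehicle DMSO. Each group had 2 samples, and each sample was hybridised to 1 single-colour (Cy3) array. Whether samples 1 and 2 were separate mice or cultures is not stated in the labels, and the p-values then cover only the spread among the samples at hand, which could be technical. The compound is named only as GKA, there was no untreated group, and whole islets hold several cell types, so fewer cells of a type and less RNA per cell cannot be told apart.

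A ribosome needs each of its proteins in about equal numbers, and the genes for them are transcribed together at high rates in every cell. Their transcripts carry a 5' terminal oligopyrimidine (TOP) motif, a C followed by a run of pyrimidines at the very start of the mRNA. Through this motif mTORC1, the kinase complex that senses amino acids and energy, sets how much of these mRNAs is translated. Array signal measures the amount of the transcript and not its translation.

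Pyrimidine runs of the kind found in this motif were looked for in the promoters. RefSeq promoter sequences (build GRCm38.p6) were found for 58 of the 81 tested genes, and a run of at least 8 consecutive C or T bases starting with C was searched on the gene's strand within 50 bases on either side of the annotated start. Such a run was present in 48 of the 58 genes (82.8%), against 32.0% of the 27025 genes in the same table. The 6 shown are genes whose values are described below, including 2 copies (Rpl22l1 and Rps27l) beside the genes they resemble, with the longest run of the window in capitals.
Rps6: aagtcgggCCTCTTTTTCgtgacgcc
Rps7: tgtccccaCCTCTTTTCTTCCgccacccg
Rps27: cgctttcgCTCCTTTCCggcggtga
Rps27l: cgcctccaCTCCTCTCCactcctcc
Rpl22: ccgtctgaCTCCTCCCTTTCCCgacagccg
Rpl22l1: agcccgttCTCTTCCCacggctgc
They lie at chr4:86857351-86857376 on the minus strand (Rps6), chr12:28635911-28635939 on the minus strand (Rps7), chr3:90213634-90213658 on the minus strand (Rps27), chr9:66946056-66946080 on the plus strand (Rps27l), chr4:152325679-152325708 on the plus strand (Rpl22) and chr3:28805503-28805526 on the plus strand (Rpl22l1). Counted from the annotated start as position 1, the run begins at -1 in Rps6, -2 in Rps27, 4 in Rpl22l1, 23 in Rps7, -22 in Rps27l and -39 in Rpl22, so in the last 3 it lies away from the annotated start. A run of these letters is a description of the sequence, and the transcript starts used in islets were not measured. The median log2 fold change was -0.20 for the 48 genes with a run and -0.22 for the 10 without one.

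After 24 h with GKA most ribosomal protein transcripts stood slightly below vehicle, by amounts close to the spread between the arrays. The log2 fold change (GKA minus vehicle, after each array's log2 signals were set relative to its 75th percentile) was below 0 in 73 of the 81 genes, or 90.1%, where 51.4% of all 17178 genes tested were below 0. Its median was -0.21 (interquartile range -0.32 to -0.13, whole range -0.56 to 0.26), against -0.01 for all genes. In the limma fit across all genes, 1 ribosomal protein gene fell, none rose and 80 did not pass an adjusted p of 0.05. In the same fit 8.01% of all genes fell, 9.11% rose and 17.1% changed in either direction, and the members' 1 call is a smaller share than any of these. With the normexp background correction that order turned, with 17 members and 12% of all genes lower. At an unadjusted p under 0.05, 14 members were lower and 0 higher, against 17.9% and 18.2% of all genes. Every 95% interval of the 81 genes lay within a 2-fold change in either direction, and 45 lay above a 1.5-fold decrease. Of all 17178 genes 13825 and 12016 did, so the members' share was higher for the first bound and lower for the second.

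Both GKA arrays lay below both vehicle arrays in 52 of the 81 genes (64.2%, against 33.5% of all genes) and above both in 3 (32.4% of all genes). The members also differed within the GKA group: GKA 1 was above GKA 2 in 81 of 81 genes, by a median of 0.24, while vehicle 1 was above vehicle 2 in 67, by a median of 0.08. Over all genes the corresponding medians were 0.04 and 0.04. The median difference from the vehicle mean was -0.10 for GKA 1, with 65 genes below, and -0.32 for GKA 2, with 77 genes below. The direction held on each GKA array, and its size depended on which array was read. With vehicle 1 or vehicle 2 left out, the members' median was -0.18 or -0.24. The 1 member call was not kept with any sample left out, where fewer of all genes passed as well.

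**Figure D1:**
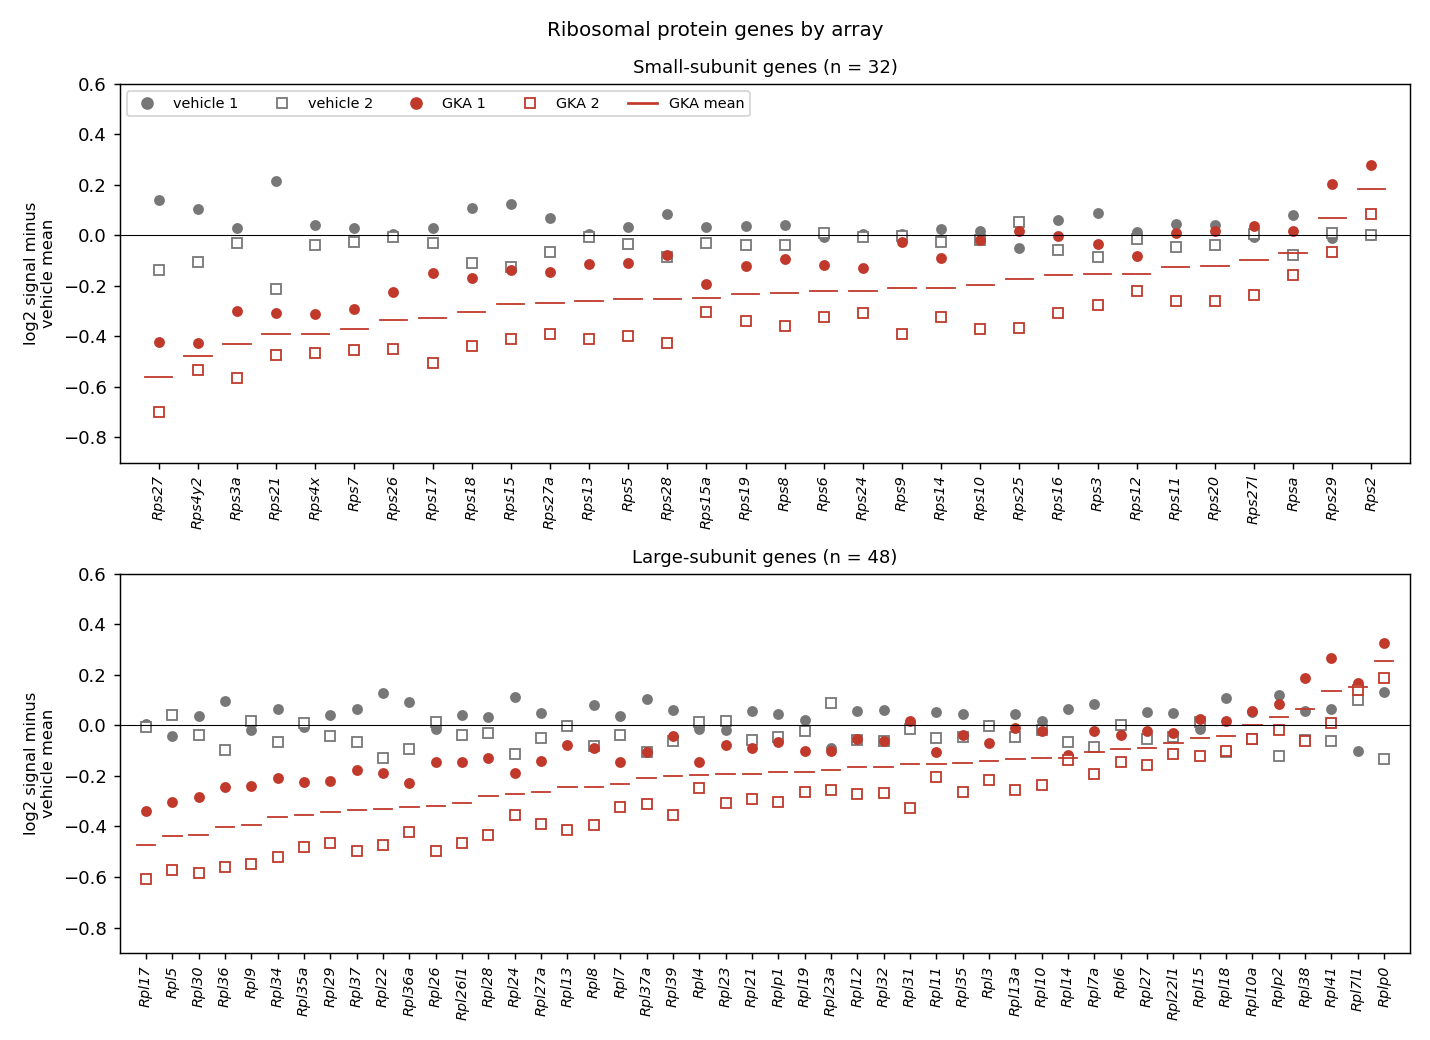
Log2 signal of 80 ribosomal protein genes, those that did not pass the test, on each array, minus the mean of the 2 vehicle arrays, with genes named Rps in the upper panel and Rpl or Rplp in the lower, ordered by their log2 fold change; circles are samples 1, squares samples 2 and bars the GKA mean. Most red symbols lie below 0, and GKA 2 lies below GKA 1 in every gene shown.

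How far the members stood from vehicle depended on the scaling between arrays. The GKA arrays were dimmer, with a 75th percentile of the signal of 557 and 598 against 751 and 755. Without any scaling the median of all genes was -0.40, 44.6% of all genes fell and 4.37% rose, and 74 members fell with a median of -0.59. Scaled to the spike-in transcripts added to each labelling, the median of all genes was -0.61, 39.6% of all genes fell and 1.99% rose, and 65 members fell with a median of -0.80. The members' median lay 0.19 below that of all genes under both, as in the main scaling (-0.19). Both scalings moved every gene's value by the same amount, which put all 81 members below 0, including the 8 that were above 0 in the main scaling. With quantile normalization 3 members and 8.74% of all genes fell, and with scaling to the array median 4 members and 10.8%, so the members' share of calls was below that of all genes under both.

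**Figure D2:**
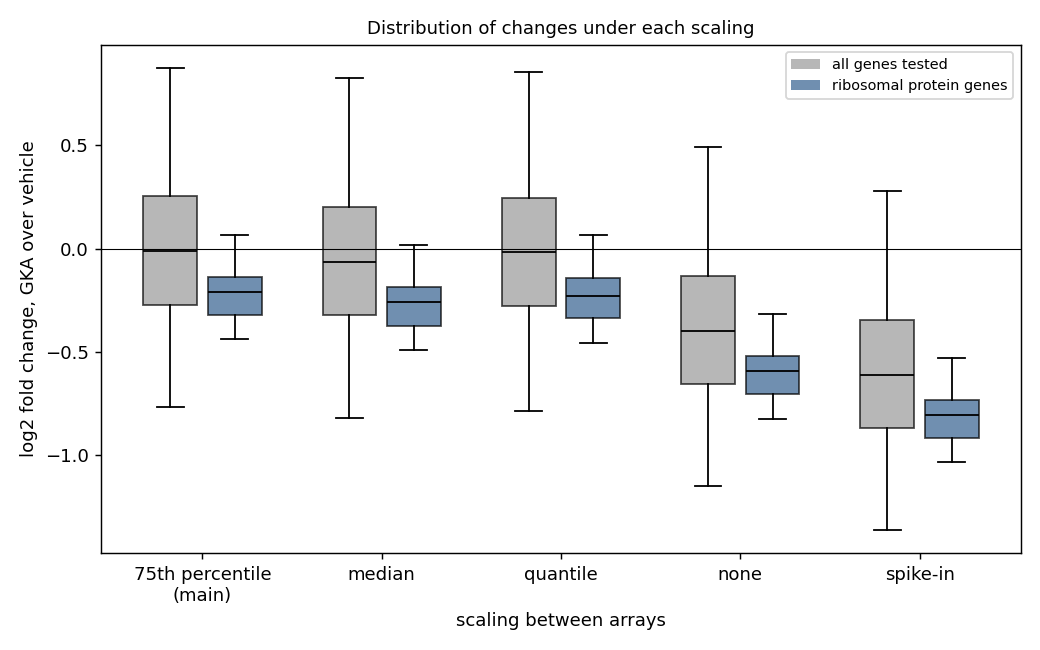
Log2 fold change of all genes tested and of the ribosomal protein genes under 5 scalings between arrays; boxes span the 25th to 75th percentile with the median as a line, and whiskers reach the 5th and 95th percentiles. The members' median lies below that of all genes in each scaling while the boxes overlap, with medians from -0.21 to -0.80.

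Small-subunit genes were below 0 in 28 of 30 cases, with a median log2 fold change of -0.23, and none passed the test. Rps27, a zinc-binding protein on the outer surface of the subunit, had the lowest value of all members. Its log2 signal was 7.95 and 7.68 in vehicle and 7.39 and 7.11 with GKA. The groups did not overlap, and the log2 fold change was -0.56 (SE 0.16, limma adjusted p = 0.0706). All 4 Rps27 probes gave -0.47 to -0.56. They are placed on chromosome 9 of mm9 in the authors' deposited table, while RefSeq has the gene on chromosome 3, so a processed copy with the same sequence and the gene cannot be told apart by these probes.

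Rps3a, now named Rps3a1, measured 5.83 and 5.77 in vehicle and 5.50 and 5.24 with GKA, a log2 fold change of -0.43 (SE 0.14, adjusted p = 0.0890 in limma). Rps4x, the X-linked form of an RNA-binding small-subunit protein, measured 5.38 and 5.30 in vehicle and 5.03 and 4.87 with GKA (-0.39, SE 0.12, limma adjusted p = 0.0847). The only Rps4x probe is placed on chromosome 3 in the authors' deposited table, so a copy there and the X-linked gene cannot be told apart. Rps7, whose promoter run is shown above, measured 5.56 and 5.50 in vehicle and 5.24 and 5.08 with GKA (-0.37, SE 0.12, limma adjusted p = 0.0929). In these 3 genes the groups did not overlap, and the adjusted p remained above the threshold.

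Rps6, the substrate of S6 kinase downstream of mTORC1, was near the middle of the group. Its signal was 7.05 and 7.07 in vehicle and 6.94 and 6.74 with GKA, and its 3 probes gave log2 fold changes of -0.21 to -0.25. The GKA arrays were both lower, by less than the test could call (limma adjusted p = 0.269). Rps19, the gene most often mutated in Diamond-Blackfan anaemia, measured 4.78 and 4.70 in vehicle and 4.62 and 4.40 with GKA (-0.23, adjusted p = 0.263 in limma). Rps27a, made as a fusion with ubiquitin, measured 8.04 and 7.91 in vehicle and 7.83 and 7.58 with GKA (-0.27, adjusted p = 0.227 in limma). Rps21 and Rps25 had the largest standard errors of all members, 0.18 and 0.16, followed by Rps27. Rps21 measured 4.56 and 4.13 in vehicle and 4.04 and 3.87 with GKA (-0.39), and Rps25 6.01 and 6.11 against 6.08 and 5.69 (-0.17). In Rps21 the spread lay mainly between the vehicle arrays and in Rps25 between the GKA arrays.

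The 2 small-subunit genes above 0 were Rps2 and Rps29. Rps2, a protein of the mRNA entry side, measured 6.23 and 6.23 in vehicle and 6.51 and 6.32 with GKA, a log2 fold change of 0.18 (SE 0.12, limma adjusted p = 0.347). Both GKA arrays were above both vehicle arrays, and the second probe of Rps2 gave 0.08 with overlapping groups. Rps29 gave 0.07 from its brightest probe and down to -0.36 from another. Rpsa, known also as the laminin receptor precursor, measured 7.52 and 7.36 in vehicle and 7.45 and 7.28 with GKA, with overlapping groups (-0.07, limma adjusted p = 0.733).

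Large-subunit genes were below 0 in 41 of 46 cases, with a median log2 fold change of -0.19. The 1 call among the members was in this subunit. Both GKA arrays lay below both vehicle arrays in 30 of the 46 genes (65.2%, against 33.5% of all genes).

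Rpl5 and Rpl11 form, with 5S RNA, the particle that binds the p53 regulator MDM2 when ribosome assembly stalls. Rpl5 measured 5.14 and 5.23 in vehicle and 4.88 and 4.61 with GKA, a log2 fold change of -0.44 (SE 0.14, limma adjusted p = 0.0892). Rpl11 measured 7.94 and 7.84 in vehicle and 7.79 and 7.69 with GKA (-0.15, SE 0.12, adjusted p = 0.394 in limma). Neither passed, and the groups did not overlap in either. Rpl17, Rpl30 and Rpl9 were also low, at -0.47, -0.43 and -0.39, with limma adjusted p values of 0.0709, 0.0987 and 0.118.

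Rpl3, which helps form the peptidyl transferase centre, measured 6.59 and 6.59 in vehicle and 6.52 and 6.37 with GKA (-0.14). Rpl10, joined last to the large subunit, measured 8.43 and 8.39 in vehicle and 8.39 and 8.17 with GKA (-0.13). Rpl39, a small protein of the exit tunnel, measured 6.06 and 5.94 in vehicle and 5.96 and 5.65 with GKA (-0.20). These 3 are the genes whose tissue-restricted copies Rpl3l, Rpl10l and Rpl39l were not well above background, and none passed (limma adjusted p = 0.434, 0.511 and 0.389). Rpl4 and Rpl6 had the smallest standard errors of all members, 0.11 each, and gave -0.20 and -0.09. Rpl7, whose relative Rpl7l1 is described below, gave -0.23 (limma adjusted p = 0.238).

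The stalk that recruits translation factors is made of Rplp0 and the acidic proteins Rplp1 and Rplp2, and it held the highest member. Rplp0, often used as a reference gene in quantitative PCR, measured 7.89 and 7.62 in vehicle and 8.08 and 7.95 with GKA. Both GKA arrays were above both vehicle arrays, the log2 fold change was 0.26 (SE 0.14, limma adjusted p = 0.254), and its 3 probes gave 0.16 to 0.26. Rplp1 measured 6.78 and 6.69 in vehicle and 6.67 and 6.43 with GKA (-0.18, adjusted p = 0.375 in limma). Rplp2 measured 7.57 and 7.33 in vehicle and 7.54 and 7.43 with GKA, with the GKA arrays inside the vehicle range (0.03, limma adjusted p = 0.885). Without scaling Rplp0 was at -0.13 and Rplp2 at -0.35, and with spike-in scaling at -0.34 and -0.56, so neither sign is independent of the scaling. The remaining large-subunit genes above 0 were Rpl41 (0.14), Rpl38 (0.06) and Rpl10a (0.0023), each with overlapping groups.

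Genes named as copies or relatives of a core gene numbered 5 among the tested members, and none passed the limma test. Rpl22l1 measured 5.64 and 5.54 in vehicle and 5.56 and 5.48 with GKA, with overlapping groups (-0.07, adjusted p = 0.691). Rps27l, a p53 target, measured 5.54 and 5.55 in vehicle and 5.58 and 5.31 with GKA, also overlapping (-0.10, limma adjusted p = 0.641). Rpl7l1, an assembly factor related to Rpl7, measured -1.22 and -1.01 in vehicle and -0.95 and -0.98 with GKA, where both GKA arrays were higher (0.15, adjusted p = 0.430); without scaling it was at -0.23. Rps4y2, now named Rps4l, had 3.17 and 2.96 in vehicle and 2.64 and 2.53 with GKA and was the lowest of them (-0.48, SE 0.13, limma adjusted p = 0.0629). Rpl26l1 gave -0.31, and its entry is now named Rpl26-ps4, a pseudogene. Differences between such a copy and its core gene were not tested.

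Several probes of a gene gave a further view of the same transcript on the same arrays. Of 165 kept probes 149 were below 0, with a median of -0.24. In the limma fit over all kept probes 4 fell and 0 rose, against 7.32% and 8.47% of all probes. In 45 of the 51 genes with several kept probes these had the same sign, and the median gap between a gene's highest and lowest probe was 0.09. The gap was under 0.25 in 44 genes and reached 0.56 in Rpl6, 0.44 in Rps3, 0.43 in Rps29 and 0.36 in Rpl36a, whose probes differed in sign.

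Rpl22, an RNA-binding protein that is dispensable for ribosome function, had the widest gap, 1.47. Its brighter probe, at chr4:151706515-151706574 (mm9, plus strand), measured 6.35 and 6.09 in vehicle and 6.03 and 5.75 with GKA (-0.33, SE 0.16, limma adjusted p = 0.204 in the gene fit). Its second probe, at chr4:151708012-151708071 on the same strand, measured 2.87 and 2.58 in vehicle and 1.01 and 0.85 with GKA. Here the groups lay far apart, with a log2 fold change of -1.80 (SE 0.15, limma adjusted p = 0.00527 over all probes), 3.48-fold lower. The brighter probe represents the gene in the counts above, so this decrease is not among them. Which exon or transcript form each probe reads was not analysed here. The other 3 probes that fell all belong to Rpl17, a protein of the exit tunnel, at -0.54, -0.55 and -0.70. All 7 Rpl17 probes were between -0.46 and -0.70.

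**Figure D3:**
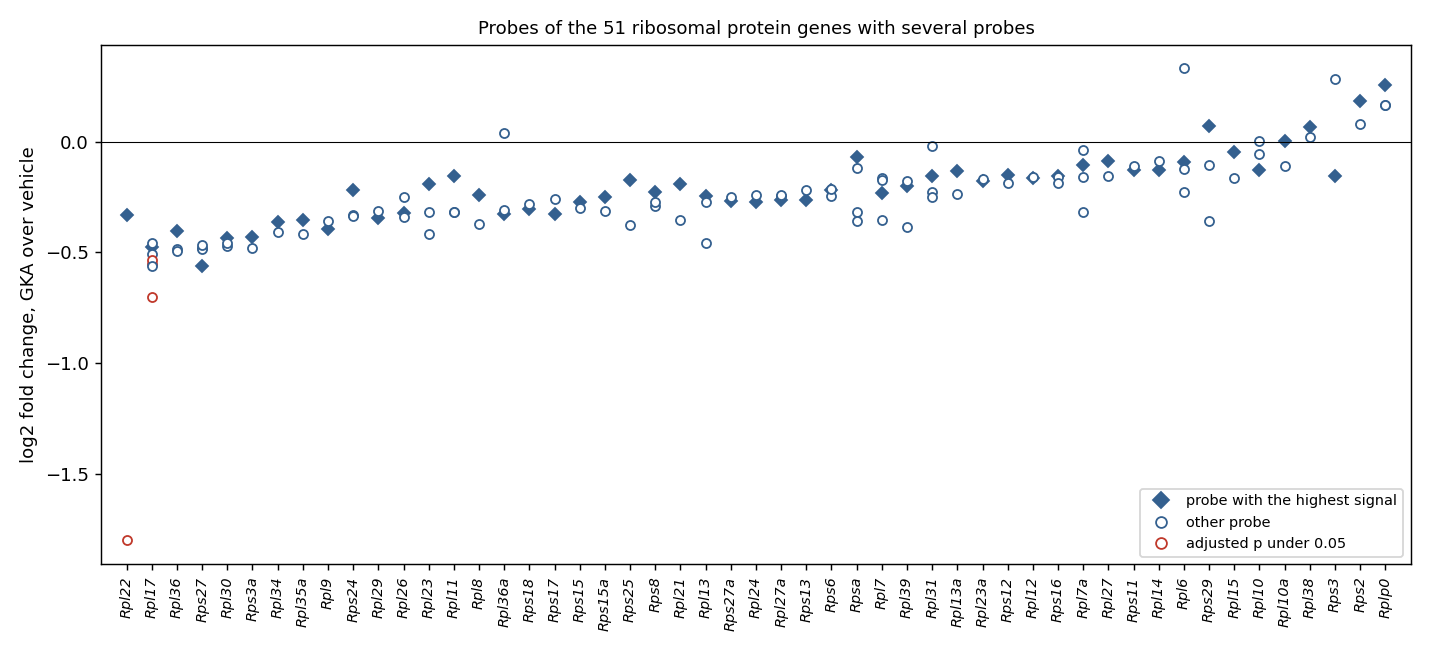
Log2 fold change (GKA minus vehicle) of every kept probe of the 51 ribosomal protein genes with several kept probes, ordered by the gene's median; diamonds mark the probe with the highest signal, which represents the gene, and red marks probes that passed the limma test over all probes. The probes of a gene mostly coincide, and the second Rpl22 probe stands alone at -1.80.

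Ribosomal protein genes have many processed copies in the genome: 321 genes in the RefSeq table are named as their pseudogenes. Of 170 member probes with both a deposited position and a RefSeq chromosome, 11 probes of 6 genes (Rpl13, Rpl31, Rpl36, Rps27, Rps29 and Rps4x) were placed on another chromosome than the gene. The values of these genes are uncertain to that extent. No member spot was marked as saturated (0 spots), although 78 of the 81 representing probes were above the 90th percentile of signal among those tested, where probe brightness also depends on the probe. In the authors' deposited table the ratio of GKA over control is not scaled between arrays. There all 165 kept member probes had a ratio under 1, with a median of 0.648. Over all probes of that table, kept or not, the median was 0.841 and 78.8% were under 1. These also include dim probes, so the sets are not alike. Among genes tested, the median log2 fold change without scaling was -0.59 for members and -0.40 for all genes.

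Outside the symbol rule, 3 further genes of the ribosome were read. Rpl36al, a copy of Rpl36a, had 5.35 and 5.17 in vehicle and 5.73 and 5.55 with GKA (0.38, limma adjusted p = 0.109), a log2 fold change above that of every member, and without scaling it was at -0.0022. Fau, which encodes a ribosomal protein fused to a ubiquitin-like protein, gave -0.02 with overlapping groups. Gnb2l1, now Rack1, a scaffold on the small subunit, gave -0.21. None of the 3 passed.

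Other genes of the translation machinery were read from 5 lists. Among 26 tested TOP mRNAs that encode no ribosomal protein, 6 fell and 0 rose, where 8.01% of all genes fell and 9.11% rose. Their median log2 fold change was -0.25. Eif4b, which assists the helicase that unwinds mRNA leaders, measured 3.27 and 3.04 in vehicle and 2.28 and 2.11 with GKA (-0.96, SE 0.14, limma adjusted p = 0.0161). Npm1, the nucleolar chaperone nucleophosmin, measured 5.27 and 5.13 in vehicle and 4.43 and 4.50 with GKA (-0.74, SE 0.12, limma adjusted p = 0.0198). Eef2, the elongation factor that moves the ribosome along the mRNA, measured 6.33 and 6.40 in vehicle and 5.81 and 5.63 with GKA (-0.65, limma adjusted p = 0.0287). In all 3 the groups lay apart by more than the spread within either group. The others that fell were Gas5, a non-coding host of small nucleolar RNAs (-0.95), and Eif3f (-0.73) and Eif3e (-0.57), subunits of an initiation factor. With the mean of its probes in place of the brightest, Gas5 was at -0.17 and did not pass (limma adjusted p = 0.368).

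Of 36 translation factors outside that list, 1 fell (Eif2a, -0.49) and 0 rose, with a median of 0.06. Of 71 mitochondrial ribosomal proteins, which serve a separate ribosome, Mrps12 rose (0.54, limma adjusted p = 0.0404), Mrpl48 fell (-0.53, limma adjusted p = 0.0406) and the median was -0.10. Of 82 ribosome biogenesis genes 5 fell and 1 rose, with a median of -0.08. In this list, the translation factors and the mitochondrial ribosomal proteins, the share that fell was below the 8.01% of all genes. The share that rose was likewise below their 9.11%. Utp14a, a processing factor of small-subunit RNA, fell by 0.96, Tcof1, which promotes transcription of ribosomal RNA, by 0.76, and Dkc1, the enzyme that makes pseudouridine in ribosomal RNA, by 0.74. Tsr1, an assembly factor of the small subunit, rose by 0.47 (limma adjusted p = 0.0449; 0.0569 with median scaling). Without scaling Mrps12 was at 0.16 and Tsr1 at 0.09, and with spike-in scaling at -0.05 and -0.12, and neither passed.

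In the mTORC1 pathway 3 of 33 genes fell and 1 rose, with a median of -0.13. The share that fell was near the 8.01% of all genes, and the share that rose was below their 9.11%. Fnip2, a partner of folliculin, fell by 0.86, Sesn2, a leucine sensor, by 0.75 and Rragd, a GTPase that recruits mTORC1 to the lysosome, by 0.72. Ddit4, an inhibitor of mTORC1, measured 4.08 and 4.44 in vehicle and 4.92 and 4.87 with GKA and rose by 0.64 (limma adjusted p = 0.0499). This call was lost with quantile normalization (limma adjusted p = 0.0627), with median scaling (0.0626), without scaling (log2 fold change 0.25) and with spike-in scaling (0.04). The kinase itself, Mtor, did not pass (-0.16). Over the 5 lists 19 calls were made in all, a smaller share of the genes tested than the 17.1% of all genes that passed. That count was lower with any sample left out, where fewer of all genes passed as well.

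**Figure D4:**
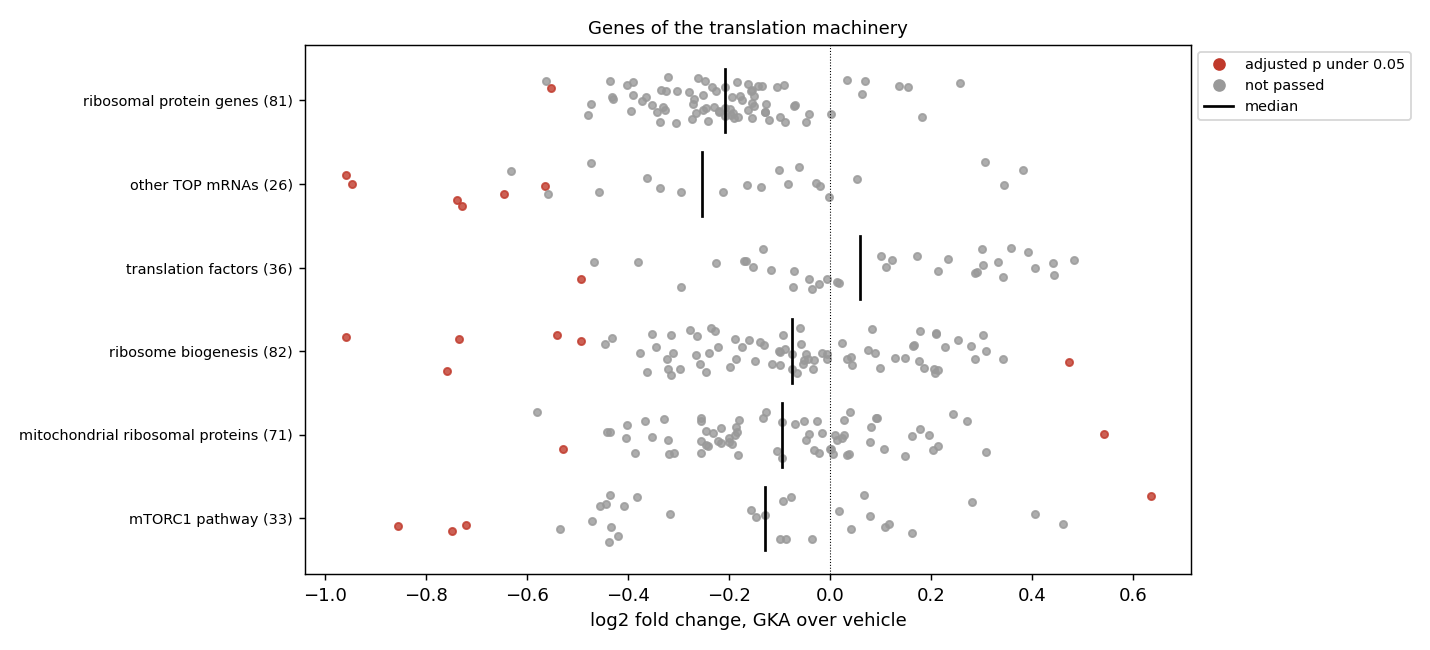
Log2 fold change (GKA minus vehicle) of each tested gene in the ribosomal protein genes and 5 other lists, 1 point per gene with random vertical spread; red points passed the limma test across all genes and black bars are medians. The ribosomal protein genes form a narrow band between -0.56 and 0.26, while the 6 called TOP mRNAs lie between -0.57 and -0.96.

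The islet label was checked on endocrine markers: all 6 of beta cells, 3 of alpha cells, 2 of delta cells and 1 of PP cells were well above background. Ins1, Ins2 and Gcg, the insulin and glucagon genes, gave 0.31, 0.25 and 0.31 and did not pass (limma adjusted p = 0.134, 0.171 and 0.129). Sst, of the delta markers, rose by 0.83 (limma adjusted p = 0.0198), and Ppy, the PP marker, gave 0.09 and did not pass. Of 9 leukocyte markers 4 fell (Lyz2, Lyz1, Aif1 and Ptprc) and 0 rose, while Itgam (0.41) and Cd68 (0.39) were higher on both GKA arrays without passing, with a summed level, relative to each array's 75th percentile, of 8.39 to 8.96 in vehicle and 7.54 to 8.12 with GKA. Of 6 beta-cell markers 2 rose, Mafa (1.06) and Pdx1 (1.11). The sums over all 6 were 1088 to 1091 and 1308 to 1347 and came mainly from Ins1, Ins2 and Iapp, which did not pass. Of 7 acinar markers on the array 4 (Cpa1, Pnlip, Prss2 and Cela2a) were not well above background, and the sums were 1.47 to 1.63 and 2.45 to 3.76. Every cell type expresses ribosomal proteins, and the part of cell makeup in the members' values was not tested. All 4 arrays shared 1 slide, with vehicle and GKA at separate positions, so slide position and treatment cannot be told apart.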

How the data were processed

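Islet RNA of 2 vehicle and 2 GKA samples was measured on 4 single-colour Agilent mouse arrays. Spot intensity (processed signal, background-subtracted) was made by the authors with Agilent Feature Extraction, version 10.7.3.1 per the file headers and 9.1 per the submitters' processing notes. The ratio of GKA over control comes from the authors' deposited table, which also gives gene names and mm9 probe positions. The members and all gene lists were chosen with earlier results of these data known. The main value was the log2 intensity minus each array's 75th percentile over non-control probes. Control and outlier-flagged spots were dropped, and repeated spots were averaged. A probe was kept if both arrays of 1 group or more read it well above background. The brightest probe represented a gene. Groups were compared with limma 3.58.1 in R 4.3.3 (lmFit and eBayes, two-sided, 2 residual and 3.33 prior degrees of freedom), with Benjamini-Hochberg adjustment over the 17178 genes or 24480 probes tested and a threshold of 0.05. The code was tested on simulated data. An exact permutation test cannot go below p = 0.333 here, and none is given. The number of arrays limits the precision.

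Genes named were those past the threshold, those without a kept probe, the 3 with the largest and smallest standard error, a fixed set of members and paralogs, and up to 3 called genes per list and direction. Some genes that this rule took are not reported here. Other names were chosen after their values were seen. Alternatives covered scaling, background correction, filters, probe choice, variance trend, the replicate block and each sample left out. The normexp correction (offset 50) used the median spot signal, since the array files hold no mean signal column. Spike-in scaling restricted to bright spots was added after seeing the data.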

Additional observations from a re-analysis of the deposited data

How the results depend on the processing

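In every alternative run 65 to 81 members were below 0, but several of these runs could not test the direction. The intensity trend and the replicate block leave the fold changes as they were. Leaving out the scaling and spike-in scaling lower every gene by 1 constant, which put all 81 below 0. Below the all-gene median were 65 members (GKA 2 left out) to 78 (normexp and the 75th percentile). The count that fell was 1 in the main fit, where 8.01% of all genes fell. It was 74 without scaling (44.6% of all genes fell) and 65 with spike-in scaling (39.6%). Spike-in scaling on bright spots (added after seeing the data) gave 71 (44.1%). The count was 4 with the median (10.8%) and 3 with quantile normalization (8.74%). It was 17 with normexp and the 75th percentile (12%) and 20 with normexp and quantiles (12%). An intensity trend gave 7 (12.2%) and the mean of a gene's probes 3 (8.16%). Without a filter on dim probes it was 0 (0.255%). The 1 call was not kept when any 1 sample was left out, where fewer of all genes passed as well. At 1 probe per gene the 4 probe calls became 1. The members' median was -0.59 without scaling, -0.80 and -0.75 with spike-ins, and -0.32 to -0.10 with a sample left out. All genes that passed (2941) became 8404 without scaling, 7147 and 8010 with spike-ins, 5045 with normexp and the 75th percentile, 223 without the filter and 533 to 2835 with a sample left out. The 19 calls of the other translation lists became 162, 112 and 131 under the same 3 scalings, 29 with the median, 54 with either normexp form, 49 with the trend, 0 without the filter and 0 to 15 with a sample left out.

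With the replicate block, limma called 0 members, 1916 genes and 10 genes of the other lists. The numbers were not taken to pair the samples, since same-numbered samples' deviations from the group means correlated at 0.0751 over all genes with 2 pairs.

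Some values changed sign. Leaving out the scaling, spike-in scaling and median scaling each move all genes by 1 constant, which sets the signs given next. Without scaling, with spike-ins and with bright spike-ins, the log2 fold changes were -0.078, -0.29 and -0.24 for Gcg, -0.075, -0.29 and -0.24 for Ins1, -0.13, -0.34 and -0.29 for Ins2, -0.0022, -0.21 and -0.16 for Rpl36al, -0.23, -0.44 and -0.39 for Rpl7l1, -0.13, -0.34 and -0.29 for Rplp0, and -0.35, -0.56 and -0.51 for Rplp2. With spike-ins and bright spike-ins they were -0.053 and -0.0025 for Mrps12 and -0.12 and -0.071 for Tsr1. Rplp2 was at -0.019 with median scaling. With a sample left out, the sign also turned for Rplp2 (-0.087 to 0.15), Fau (-0.18 to 0.14), Rpsa (-0.16 to 0.016), Rps25 (-0.37 to 0.017) and Rps27l (-0.24 to 0.038). The cause of the turns with a sample left out was not tested.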
